A study of Homo sapiens with 8 samples.

Results

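Expression of 10 genes of the contractile actin cytoskeleton was followed in PANC-1 cells, an established line from a human pancreatic ductal carcinoma. The genes were picked by name from the table of normalized counts: ACTA2, TPM1, TPM2, TPM4, CNN1, CNN2, TAGLN, CALD1, ACTN1 and MYL9. All 10 were found among the 13307 genes in the table, and all 10 reached 10 normalized counts or more in 2 or more libraries. A normalized count is the number of reads on a gene's exons divided by a size factor of the library, so that libraries of different depth can be compared.

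PANC-1 cells were transfected by RNAiMAX with a non-targeting siRNA (siNC, labelled siControl) or with siRNA against PHF13 (siPHF13), and from the following day were kept with or without 10 ng/ml TGFβ for 48 h as an inducer of epithelial-mesenchymal transition (EMT). This gave 4 groups, siNC, siPHF13, siNC + TGFβ and siPHF13 + TGFβ, each with 2 polyA RNA-seq libraries. All groups share the cell line and the transfection, and no library of cells without siRNA was analysed here. The study asked how PHF13, a chromatin reader, takes part in EMT driven by TGFβ. The libraries held 39196214 to 46700806 reads on genes. The labels do not say whether the 2 libraries of a group came from separate cultures, so p-values measure only the spread between these libraries, which may be technical.

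Stress fibers are bundles of actin filaments that myosin II pulls on. Tropomyosins lie along the filament and set which other proteins bind it, calponins, transgelin and caldesmon bind the filament and restrain or tune the motor, alpha-actinin ties filaments together, and the regulatory light chain switches myosin II on when it is phosphorylated. Several of these genes are classical markers of smooth muscle and of myofibroblasts, and TGFβ is known to raise many of them in epithelial cells that undergo EMT, in part through SRF and its cofactors, which bind the CArG box of cytoskeletal promoters.

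PHF13 itself had 1804 and 1662 normalized counts in siNC and 1586 and 1709 in siNC + TGFβ. After siPHF13 it had 524 and 558 without TGFβ and 513 and 529 with it. The depleted libraries lay below all others, at 31.2% of the siNC mean and 31.6% of the siNC + TGFβ mean. Keratins of ductal epithelium (KRT7, KRT8, KRT18 and KRT19) were all detected, KRT8 at 70722 to 120045 normalized counts. Of the 9 markers listed for other cell types, DES, DCN, LUM, PECAM1, CDH5 and PTPRC are not among the genes in the table. SMTN was at 2450 to 3467, MYH11 at 55.5 to 84.7 and PDGFRB at 25.6 to 57.1. The summed level of the 4 keratins averaged 198542 and 182809 in untreated siNC and siPHF13 cells, and 124405 and 144010 in the same cells with TGFβ, so it moved with the TGFβ comparisons below. KRT8 made up most of this sum, while KRT7 had group means of only 415 to 434. Upon depletion the 4 keratins did not move alike. Between siNC + TGFβ and siPHF13 + TGFβ, KRT19 averaged 18674 and 31570, and KRT8 72806 and 80951. KRT18 averaged 32492 and 31056 there, and KRT7 433 and 434. Between untreated siNC and siPHF13, KRT19 averaged 33372 and 39777, while KRT8 averaged 116542 and 104358 and KRT18 48208 and 38259. The part of the keratins in these comparisons was not tested. In such bulk libraries, fewer cells of a type and less RNA per cell cannot be told apart.

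Differences are log2 fold changes from limma on log2(normalized count + 1), with p-values adjusted by the Benjamini-Hochberg method over all 13307 genes. A gene was called changed at an adjusted p under 0.05 with an absolute log2 fold change over 0.58. PHF13 depletion without TGFβ changed 4 of the 10 genes, against 18.4% of all genes. TPM4 and CNN1 rose, against 7.95% of all genes that rose, and TPM2 and CALD1 fell, against 10.4% that fell. TGFβ in siNC cells raised 3 of the 10, TPM1, CALD1 and MYL9, and lowered none, while 4.79% of all genes were called, 3.27% upward and 1.52% downward. Depletion under TGFβ changed 6 of the 10, with TPM4 and CNN1 up and TPM1, TPM2, CALD1 and MYL9 down, against 20.5% of all genes (8.81% up and 11.7% down). TGFβ in siPHF13 cells raised 2, TPM1 and CALD1, against 1.35% of all genes (1.13% up and 0.218% down). By the adjusted p alone, with no limit on size, 7, 6, 8 and 2 of the 10 genes passed in these comparisons in the same order, against 47.4%, 15.9%, 50.4% and 3.07% of all genes. Upon depletion, called genes went opposite ways both among the tropomyosins and among the calponin and caldesmon genes.

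**Figure D1:**
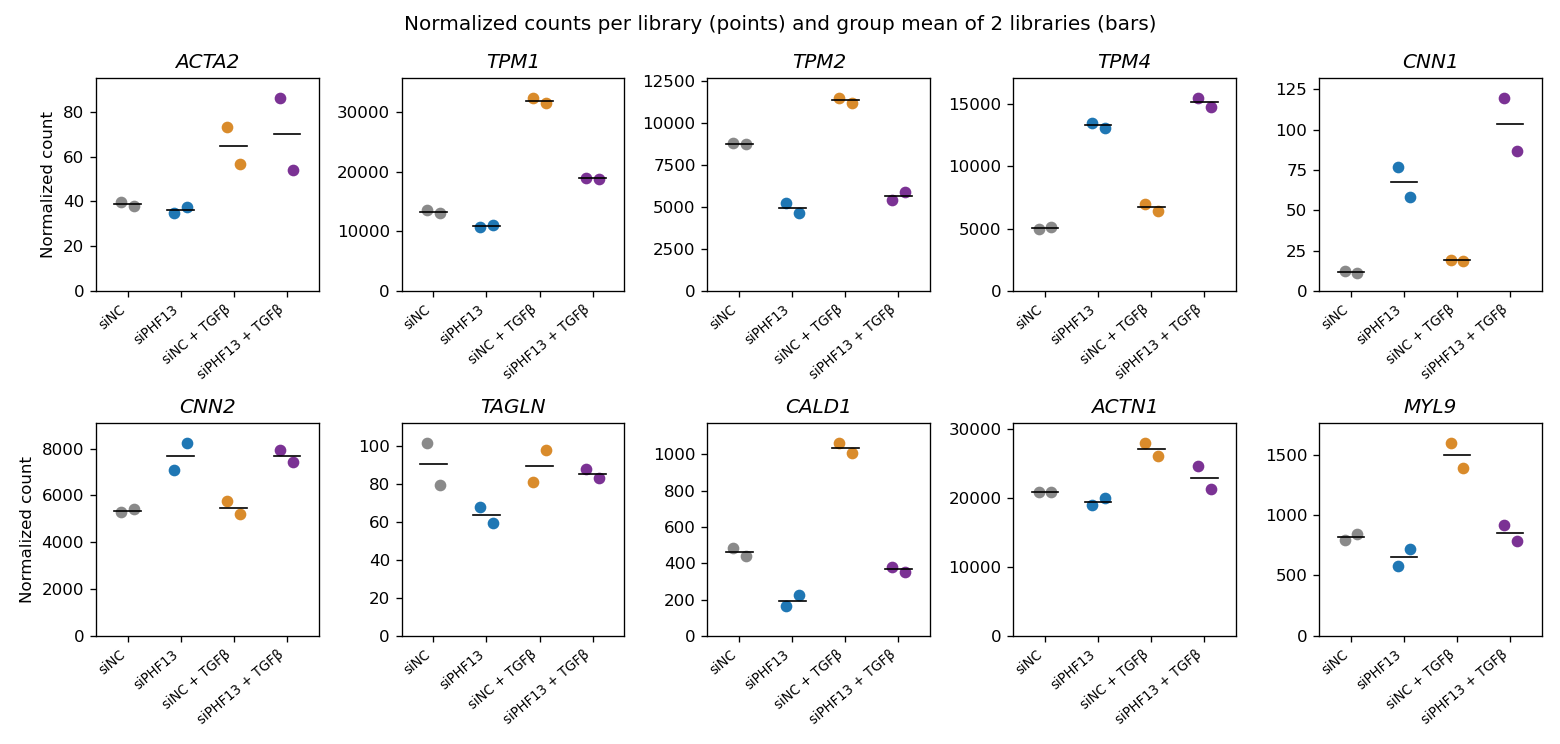
Normalized counts (vertical axes, linear and starting at 0, with a scale of their own for each gene) of the 10 genes in the 4 groups; points are single libraries and black lines the mean of 2. TPM4 and CNN1 are high in both siPHF13 groups, TPM2 and CALD1 are low in them, and TPM1 is highest in siNC + TGFβ at 32400 and 31436.

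Among the tropomyosins, TPM1 and TPM2 encode isoforms of stress fibers and muscle, and TPM4 encodes a short isoform found in most non-muscle cells. TPM1 (ENSG00000140416, GRCh37 chr15:63334819-63364114, plus strand) had 13516 and 13023 normalized counts in siNC libraries, 10707 and 10994 after siPHF13, 32400 and 31436 with TGFβ in siNC cells, and 19016 and 18725 with TGFβ after siPHF13. The groups did not overlap, and siNC + TGFβ stood far above the rest. TGFβ raised TPM1 by 1.27 in siNC cells (log2, SE 0.06, adjusted p = 4.74e-09), or 2.41-fold, and by 0.80 in siPHF13 cells (adjusted p = 1.84e-06), or 1.74-fold. Upon depletion under TGFβ it fell by 0.76 on the log2 scale (adjusted p = 1.51e-07). Without TGFβ the difference was -0.29 (adjusted p = 0.000751), which is below the size set for a call. Exons of TPM1 overlap those of TPM1-AS and of another gene on the opposite strand, and reads of such partners cannot be told apart, since the strand setting of the counting is not given in the sources used here.

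TPM2 (ENSG00000198467, chr9:35681989-35690053, minus strand) had 8769 and 8731 in siNC libraries, 5201 and 4630 after siPHF13, 11488 and 11174 with TGFβ in siNC cells, and 5401 and 5905 with TGFβ after siPHF13. The siPHF13 libraries lay well below their controls, with or without TGFβ. Depletion lowered TPM2 to 56.2% of the control mean without TGFβ (log2 fold change -0.83, SE 0.07, adjusted p = 5.36e-07) and to 49.9% with it (2.01-fold lower, adjusted p = 8.68e-08). The response to TGFβ was 0.37 in siNC cells (adjusted p = 0.00214) and 0.20 in siPHF13 cells (adjusted p = 0.171), neither large enough for a call.

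TPM4 (ENSG00000167460, chr19:16177831-16213812, plus strand) went the other way. It had 4972 and 5100 in siNC libraries, 13491 and 13052 after siPHF13, 6991 and 6438 with TGFβ in siNC cells, and 15486 and 14769 with TGFβ after siPHF13. All 4 depleted libraries lay well above all 4 control libraries. The log2 fold change upon depletion was 1.40 (SE 0.06, adjusted p = 2.31e-09), or 2.64-fold, without TGFβ and 1.17 (adjusted p = 7.89e-09), or 2.25-fold, with it. TGFβ added 0.41 in siNC cells (adjusted p = 0.000403), below the size for a call, and 0.19 in siPHF13 cells (adjusted p = 0.149). Exons of TPM4 overlap one gene on the opposite strand.

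Measured per kilobase of the canonical transcript, TPM1 was the most abundant of the 4 tropomyosin genes (TPM3 included) in all groups, with 10903 normalized counts per kb in siNC and 26227 in siNC + TGFβ. TPM4 made up 8.43% of the summed tropomyosin level per kb in siNC and 24.8% in siPHF13, and 6.35% and 20.6% in the TGFβ-treated groups. TPM2 went from 30.5% to 19.1% and from 22.3% to 16.0% in the same comparisons. The share of TPM1 was 45.2% and 41.3% in untreated siNC and siPHF13 cells, and 61.4% and 52.2% in the same cells with TGFβ. The 2 libraries of each group differed by at most a few percentage points, and the shares of TPM2 and TPM4 did not overlap between siPHF13 and siNC libraries. Shares depend on the length taken for each gene: by counts without length, TPM3, which has a long canonical transcript, held 50.1% in siNC and TPM4 9.28%, rising to 25.7% for TPM4 in siPHF13. The summed tropomyosin level per kb was 24143 and 21601 normalized counts per kb in untreated siNC and siPHF13 cells, and 42714 and 29696 with TGFβ. TPM3 itself differed by -0.27 and -0.35 (log2) upon depletion without and with TGFβ, and was not called. The tropomyosin genes are close paralogs, and reads from regions they share may have been lost or split in the counting.

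**Figure D2:**
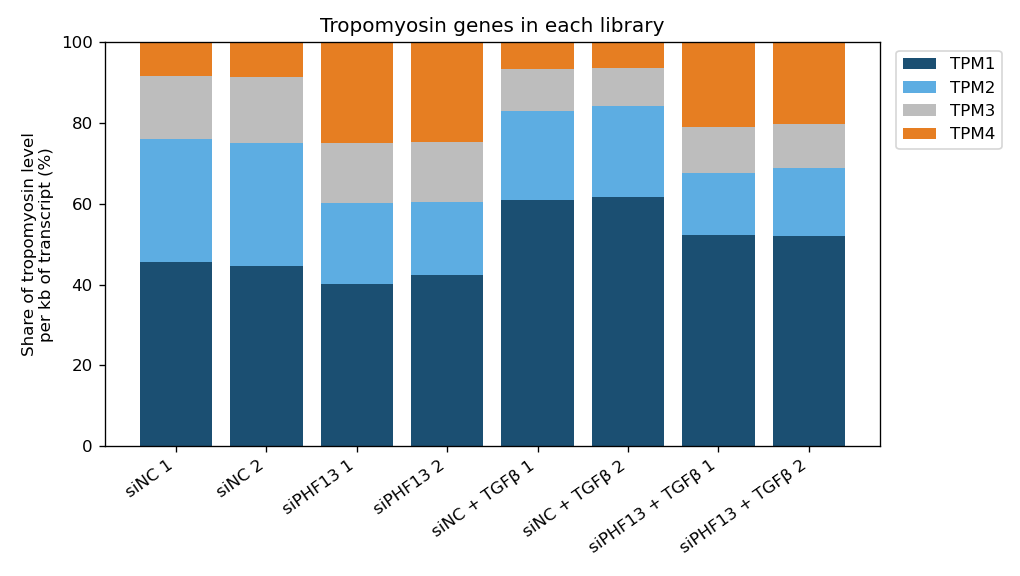
Share (%) of TPM1, TPM2, TPM3 and TPM4 in the summed tropomyosin level per kb of canonical transcript, with a bar for each library. TPM4 takes 8.43% on average in siNC and 24.8% in siPHF13, and TPM1 is largest in siNC + TGFβ at 61.4%.

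Promoter sequences of TPM4, TPM2, CNN2 and CNN1, a pair of tropomyosins and a pair of calponins, are shown to let the bases be read beside the values, and the windows of the other genes are only summarised. RefSeq promoters, listed in the reference on GRCh38.p14, were found for 8 of the 10 genes, with 18 windows in all, and each was placed on GRCh37 by an exact match of its bases. The 250 bases before the transcription start were searched on both strands for the CArG box, for the AP-1 site TGANTCA, for CATTCC (the MCAT element bound by TEAD factors) and for CAGACA (a SMAD element). Of 35116 RefSeq promoters of that length, 1.16% held a CArG box, 6.57% TGANTCA, 11.9% CATTCC and 13.6% CAGACA. Below, bases that the annotation places in an exon were left out, and capitals mark a match.
TPM4, chr19:16178117-16178343, plus strand: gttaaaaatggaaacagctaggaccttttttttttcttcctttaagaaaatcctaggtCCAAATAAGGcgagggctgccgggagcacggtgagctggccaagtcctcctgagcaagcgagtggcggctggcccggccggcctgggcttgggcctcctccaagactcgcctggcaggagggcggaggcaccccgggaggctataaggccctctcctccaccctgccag
TPM2, chr9:35690054-35690303, minus strand: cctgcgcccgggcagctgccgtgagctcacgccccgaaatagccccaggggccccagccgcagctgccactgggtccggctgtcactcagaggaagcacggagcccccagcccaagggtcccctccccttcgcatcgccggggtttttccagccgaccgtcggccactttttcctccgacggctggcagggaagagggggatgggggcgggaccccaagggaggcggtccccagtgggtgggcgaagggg
CNN2, chr19:1026357-1026584, plus strand: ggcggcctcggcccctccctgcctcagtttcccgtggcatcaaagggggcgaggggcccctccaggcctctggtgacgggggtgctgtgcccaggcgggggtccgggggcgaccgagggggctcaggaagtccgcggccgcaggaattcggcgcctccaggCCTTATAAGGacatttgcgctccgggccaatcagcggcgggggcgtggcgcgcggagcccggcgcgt
CNN1, chr19:11649416-11649581, plus strand: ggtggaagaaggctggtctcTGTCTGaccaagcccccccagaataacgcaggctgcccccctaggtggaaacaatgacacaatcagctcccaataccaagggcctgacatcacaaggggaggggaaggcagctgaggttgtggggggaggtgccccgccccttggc
The capitals in TPM4 and in CNN2 are CArG boxes, the first beginning 173 and the second 89 bases before the start. The capitals in CNN1 are a CAGACA match read on the other strand, 230 bases before the start, and the TPM2 window held none of the 4 motifs. TPM4 has 3 windows, and the 2 that are not shown held none of the 4 motifs either. Those 2, at chr19:16187055-16187304 and chr19:16187576-16187825, lie downstream of the window shown, with all their bases in annotated exons. The CArG box shown thus stands before another start than theirs. A CArG box stood in 3 of the 18 windows, those of TPM4, CNN2 and ACTN1, each of another gene. CAGACA stood in windows of TPM1, CNN1 and ACTN1, CATTCC in windows of ACTA2, CALD1 and ACTN1, and TGANTCA in one window of CALD1. No 2 of these matches overlapped. They describe the letters in these windows only, and which start the cells use was not measured.

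Calponins bind actin and tropomyosin and slow the myosin motor. CNN1, the smooth muscle form (ENSG00000130176, chr19:11649582-11661138, plus strand), was at a low level, with 12.3 and 10.8 normalized counts in siNC and 19.4 and 18.5 in siNC + TGFβ. After siPHF13 it had 76.6 and 58.2 without TGFβ and 119.8 and 86.6 with it. Here too all 4 depleted libraries were far above all 4 control libraries, although the libraries within each depleted group were spread. Depletion raised CNN1 by 2.43 (log2, SE 0.36, adjusted p = 0.000103), or 5.40-fold, and under TGFβ by 2.37 (adjusted p = 0.000115), or 5.16-fold, the largest differences among the 10 genes in either comparison. The responses to TGFβ were 0.67 in siNC cells (SE 0.36, adjusted p = 0.256) and 0.60 in siPHF13 cells (adjusted p = 0.525).

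CNN2 (ENSG00000064666, chr19:1026585-1039067, plus strand), the form of many non-muscle cells, was far more abundant. It had 5299 and 5403 in siNC libraries, 7089 and 8252 after siPHF13, 5761 and 5194 with TGFβ in siNC cells, and 7921 and 7424 with TGFβ after siPHF13. Depleted and control libraries did not overlap, but the TGFβ-treated libraries lay among the untreated ones. The depletion differences of 0.52 (log2, SE 0.08, adjusted p = 0.000113) and 0.49 (adjusted p = 0.000158) fell short of the size for a call, and the first passed it, at 0.62, without siPHF13 replicate 1. The responses to TGFβ were 0.03 and 0.00, with intervals of -0.14 to 0.20 and -0.16 to 0.17. Per kb of canonical transcript CNN1 held 0.20% of the calponin level in siNC and 0.90% in siPHF13, and CNN2 64.1% and 70.6%. CNN3, the remaining calponin, was at 0.05 and 0.04 (log2) upon depletion without and with TGFβ, and was not called. Exons of CNN2 overlap one gene on the opposite strand.

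Caldesmon, encoded by CALD1 (ENSG00000122786, chr7:134429003-134655480, plus strand), binds actin and tropomyosin and blocks myosin until it is phosphorylated. It had 482 and 438 normalized counts in siNC libraries, 163 and 223 after siPHF13, 1063 and 1007 with TGFβ in siNC cells, and 381 and 354 with TGFβ after siPHF13. No groups overlapped, and siPHF13 + TGFβ lay under untreated siNC. CALD1 fell by 1.26 on the log2 scale upon depletion (SE 0.15, adjusted p = 1.14e-05), to 42.0% of the siNC mean, and by 1.49 under TGFβ (adjusted p = 2.22e-06), to 35.5%. TGFβ raised it by 1.17 in siNC cells (adjusted p = 0.000105) and by 0.94 in siPHF13 cells (adjusted p = 0.00195), or 2.25-fold and 1.92-fold.

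TAGLN (ENSG00000149591, chr11:117070086-117078180, plus strand), which encodes the smooth muscle actin-binding protein transgelin (SM22), was low. It had 101 and 79.3 in siNC libraries, 67.6 and 59.2 after siPHF13, 80.9 and 97.7 with TGFβ in siNC cells, and 87.4 and 82.8 with TGFβ after siPHF13. Apart from siPHF13, whose 2 libraries were lowest, the groups lay in the same range. The differences upon depletion were -0.50 (log2, 95% interval -1.04 to 0.04, adjusted p = 0.119) and -0.06 (interval -0.60 to 0.48) under TGFβ, and the responses to TGFβ were -0.01 in siNC cells (interval -0.55 to 0.53) and 0.42 in siPHF13 cells (interval -0.12 to 0.96). None was called. TAGLN held 0.18% of the transgelin level per kb in siNC, or 0.50% by counts without length, and its paralog TAGLN2 the rest. Exons of TAGLN overlap PCSK7 on the opposite strand and another gene on its own strand.

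ACTA2, which encodes smooth muscle alpha-actin (ENSG00000107796, chr10:90694831-90751096, minus strand), had 39.8 and 37.8 in siNC libraries, 34.8 and 37.5 after siPHF13, 73.3 and 56.6 with TGFβ in siNC cells, and 86.4 and 53.9 with TGFβ after siPHF13. All 4 TGFβ-treated libraries were above all 4 untreated ones, and the libraries of siPHF13 + TGFβ were far apart. The responses to TGFβ were 0.72 in siNC cells (log2, SE 0.33, adjusted p = 0.169) and 0.90 in siPHF13 cells (adjusted p = 0.205), and neither was called. The differences upon depletion were -0.10 (interval -0.81 to 0.60) and 0.08 (interval -0.62 to 0.79), too wide to bound the effect of depletion within the size of a call. ACTA2 made up 0.02% to 0.04% of the summed actin level per kb, next to ACTB and ACTG1, whose reads can share sequence with it. Its exons overlap FAS and ACTA2-AS1 on the opposite strand and another gene on its own strand.

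ACTN1, encoding non-muscle alpha-actinin (ENSG00000072110, chr14:69340845-69446157, minus strand), had the highest mean normalized count of the 10 genes. It had 20831 and 20918 in siNC libraries, 19003 and 19979 after siPHF13, 28060 and 26200 with TGFβ in siNC cells, and 24627 and 21340 with TGFβ after siPHF13. The siNC + TGFβ libraries were above all others. The response to TGFβ was 0.38 in siNC cells (log2, SE 0.07, adjusted p = 0.00225) and 0.23 in siPHF13 cells (adjusted p = 0.110), and depletion differed by -0.10 (adjusted p = 0.268) without and -0.24 (adjusted p = 0.0112) with TGFβ. All 4 were below the size for a call. ACTN1 held 14.7% to 17.6% of the alpha-actinin level per kb as group means, with ACTN4 holding the rest. Its exons overlap the pseudogene HMGN1P3 on the same strand.

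MYL9 (ENSG00000101335, chr20:35169900-35179850, plus strand) encodes a regulatory light chain of myosin II of smooth muscle and non-muscle cells. It had 790 and 846 in siNC libraries, 582 and 721 after siPHF13, 1599 and 1393 with TGFβ in siNC cells, and 920 and 789 with TGFβ after siPHF13. The siNC + TGFβ libraries were well above all others, while siPHF13 + TGFβ overlapped with untreated siNC. TGFβ raised MYL9 by 0.87 in siNC cells (log2, SE 0.12, adjusted p = 0.000231), or 1.82-fold, and upon depletion under TGFβ it fell by 0.81 (adjusted p = 8.85e-05), to 57.1% of the control mean. The difference upon depletion without TGFβ was -0.34 (adjusted p = 0.0343) and the response to TGFβ in siPHF13 cells 0.39 (adjusted p = 0.116), and neither was called. As group means, MYL9 held 0.82% to 1.67% of the regulatory light chain level per kb, or 2.14% to 4.31% by counts without length. MYL12A and MYL12B held the rest. Neither of these was called in any comparison.

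**Figure D3:**
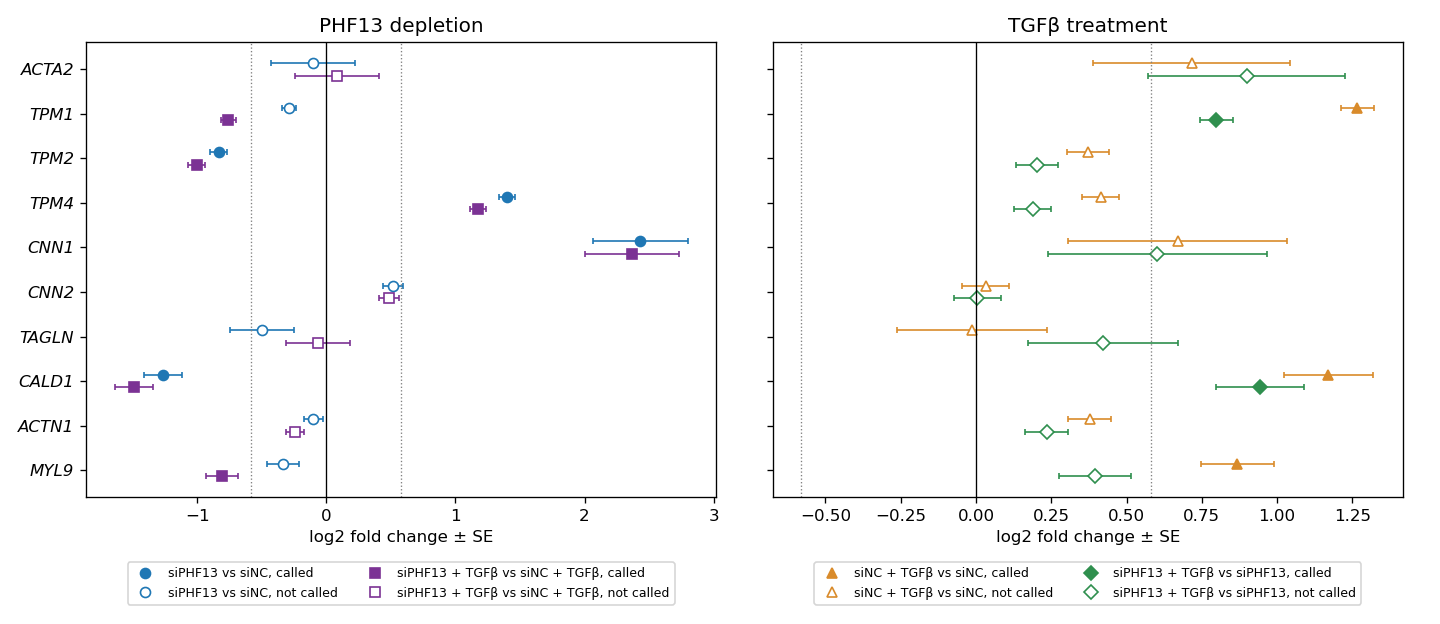
Log2 fold changes (horizontal axes, bars ± SE from the fit of all 8 libraries) of the 10 genes upon PHF13 depletion (left) and TGFβ treatment (right). Filled symbols are called changes and dotted lines mark 0.58 in either direction. CNN1 (2.43) and TPM4 (1.40) lie on the right side of the depletion panel and CALD1 (-1.26) and TPM2 (-0.83) on the left.

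The response to TGFβ was compared between siPHF13 and siNC cells by the interaction, the difference of the 2 responses. By limma, 0 of the 10 genes were called, against 0.308% of all genes (0.0601% up and 0.248% down), while 3 had an unadjusted p under 0.05, as did 9.46% of all genes. One, TPM1, had an adjusted p under 0.05, as did 0.413% of all genes. Its response was smaller in siPHF13 cells, with a difference of -0.47 (log2, SE 0.08, interval -0.64 to -0.30, adjusted p = 0.0183). The size of this difference is under that set for a call. The adjusted p was 0.0687 to 0.279 without any one library of siNC, siNC + TGFβ or siPHF13, and 0.00326 and 0.00812 without a library of siPHF13 + TGFβ, with values of -0.49 to -0.44. MYL9 had the same size, -0.47, with an interval of -0.84 to -0.10 and an adjusted p of 0.347. TPM4 was at -0.23 (interval -0.41 to -0.04, adjusted p = 0.389) and CALD1 at -0.23 (interval -0.67 to 0.22). edgeR and DESeq2 on the whole reads also called 0 of the 10 genes in the interaction. DESeq2 gave no adjusted p for ACTA2, CNN1 and TAGLN there, so it could not call these genes. The adjusted p for TPM1 was 0.0210 by edgeR and 3.17e-05 by DESeq2.

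Over the 10 genes the median log2 fold change was -0.20 upon depletion, against -0.00 over all genes, and -0.15 against 0.00 under TGFβ. The median response to TGFβ was 0.54 in siNC cells, against -0.01 over all genes, and 0.41 against -0.01 in siPHF13 cells. In siNC cells 9 of 10 and in siPHF13 cells 10 of 10 were on the higher side, called or not. Of all 13307 genes, 6507 and 6354 were on that side. CNN2, at 0.03 and 0.00, is counted here, although its sign changed with 1 library left out. The 2 comparisons of each kind do not share libraries, but depletion under TGFβ and TGFβ in siNC cells share the siNC + TGFβ libraries, so a high value in them moves both, and depletion without TGFβ shares the siNC libraries with TGFβ in siNC cells. Across the 8 libraries, which fall into the 4 groups, the log2 levels of TPM4 and CNN1 had a Pearson r of 0.99 and those of TPM2 and TPM4 one of -0.84, given as a description. Of 11194 genes averaging 100 normalized counts or more, those whose pattern over the 8 libraries was most like that of ACTN1 were ZBED4 (r = 0.985), LTBP3 (0.984), BET1L (0.982), RNF44 (0.982) and KLF7 (0.981).

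The remaining genes of the same system were taken from lists of 99 further cytoskeletal genes, of which 90 were in the table. Depletion without TGFβ raised 4 and lowered 12 of them, against 7.95% and 10.4% of all genes. Under TGFβ it raised 3 and lowered 16, against 8.81% and 11.7% of all genes. Their shares called in either direction, 17.8% and 21.1%, were near the 18.4% and 20.5% of all genes. TGFβ raised 6 (6.67%) in siNC cells and 2 (2.22%) in siPHF13 cells, against 3.27% and 1.13% of all genes raised. It lowered none of them, against 1.52% and 0.218% of all genes. None was called in the interaction, against 0.308% of all genes. There 9 of the 90 (10.0%) had an unadjusted p under 0.05 by limma, against 9.46% of all genes.

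Of 5 further genes for tropomyosins and filament ends, the tropomodulins TMOD2 and TMOD1 fell by 1.52 and 1.23 upon depletion. Under TGFβ they fell by 1.51 and 1.05. Tropomodulins cap the pointed end where tropomyosin binds. TMOD2 had low counts (SE 0.32), averaging 102 in siNC and 35.2 in siPHF13. Its siNC + TGFβ libraries were far apart, at 150 and 81.3, against 41.0 and 35.6 in siPHF13 + TGFβ. Of 8 crosslinkers, FLNC (filamin C) rose 2.30-fold upon depletion and 1.69-fold under TGFβ, and PALLD (palladin, a scaffold of stress fibers) was lower, at -0.63 and -0.90. TGFβ in siNC cells raised both, FLNC by 0.89 and PALLD by 0.75. Of 8 myosin II chains only MYH14, a non-muscle heavy chain, was called, at -0.89 and -0.79. That is 12.5% of the list in either depletion comparison, against 18.4% and 20.5% of all genes. The heavy chain gene MYH9 was at -0.31 and -0.50, not called. None of the 2 further actins or the 3 further calponin, transgelin and caldesmon genes was called in any comparison by limma.

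Of 17 genes of actin assembly and severing, LIMK1, the kinase of cofilin, rose by 0.65 upon depletion and by 0.79 with TGFβ in siNC cells. It was not called upon depletion under TGFβ, at 0.29 (adjusted p = 0.00739 by limma). Nor was it called with TGFβ in siPHF13 cells, at 0.43 (adjusted p = 0.00674 by limma). PFN2 (profilin) fell by 0.63 upon depletion and by 0.59 under TGFβ, where DIAPH2 (a formin, -0.70) and ENAH (-0.63) were also lower.

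Of 7 genes for SRF and its cofactors, SRF had 2637 and 2520 normalized counts in siNC and 1598 and 1697 in siPHF13, and 3271 and 2980 against 1876 and 1685 under TGFβ. Depleted libraries were below controls in both settings, and the log2 fold changes were -0.65 and -0.81 (adjusted p = 2.04e-05 and 2.32e-06). Its cofactor MKL1 (MRTFA) rose by 0.62 upon depletion and by 0.88 with TGFβ in siNC cells, and CSRP2 was at -0.97 upon depletion. Upon depletion under TGFβ neither was called, with MKL1 at 0.21 (adjusted p = 0.0740 by limma) and CSRP2 at -0.10 (adjusted p = 0.672). Of 22 focal adhesion genes, LIMS1 (PINCH1, an adaptor of integrin-linked kinase) fell by 1.26 and 1.29 upon depletion and rose by 0.69 and 0.66 with TGFβ in siNC and siPHF13 cells. PDLIM7 rose by 0.61 and 0.66 with TGFβ. Upon depletion under TGFβ, 1 of the 22 was called higher and 4 lower, against 8.81% and 11.7% of all genes. Beside LIMS1, SORBS2 (-1.41, SE 0.41) and PDLIM5 (-0.82) were among the lower ones. SORBS2 had low counts, averaging 62.1 in siNC + TGFβ and 23.2 in siPHF13 + TGFβ. The gene that rose is not named, since only the largest changes were.

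**Figure D4:**
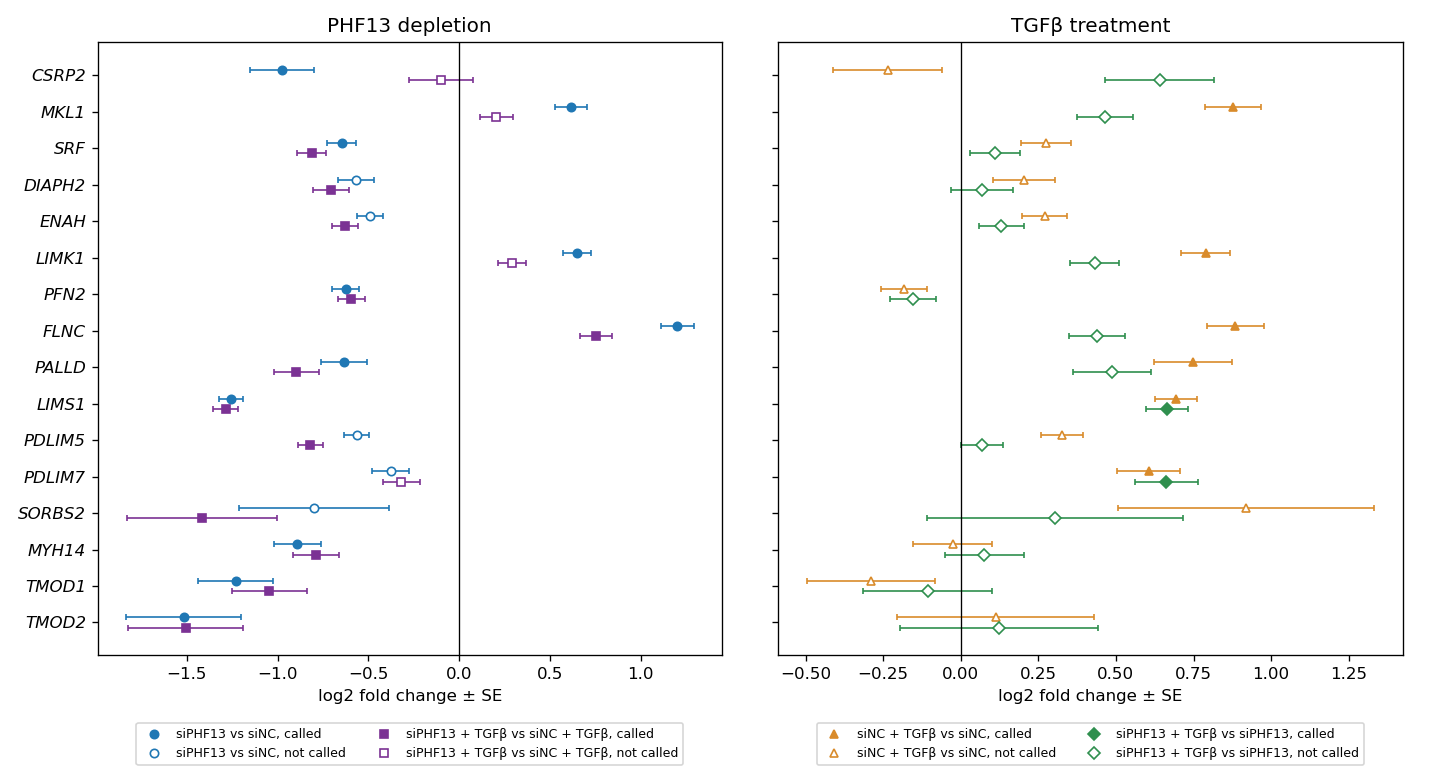
Log2 fold changes (horizontal axes, bars ± SE) of 16 further cytoskeletal genes called in at least one comparison, upon PHF13 depletion (left) and TGFβ treatment (right), with filled symbols for called changes. SRF lies at -0.65 and -0.81 in the depletion panel, and LIMS1 is called in all 4 comparisons.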

How the data were processed

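RNA was prepared from PANC-1 cells in 4 groups of 2 libraries each, with the VAHTS mRNA-seq V3 kit, and groups were taken from the sample labels. Per the labels and the study's methods, the authors trimmed reads with Trim Galore 0.4.1, mapped them with STAR 2.7.0 to hg19 and counted reads on exons with HTSeq 0.12.4. The annotation release and strand setting are not given in the sources used here. The deposited values are a signal, the gene counts divided by the authors' DESeq2 size factor of each library. In all 8 libraries 100% of values were whole multiples of one step (tolerance 0.01), and edgeR and DESeq2 were run on the whole reads so recovered from the 8 libraries. The authors' own tables of fold changes and p-values were not used.

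Differences were fitted with limma 3.58.1 (R 4.3.3, trended prior variance) on log2(normalized count + 1) over the 8 libraries without a block. A minimum of 10 in at least 2 libraries removed 0 genes. The thresholds are those of the study. The fold changes are on the log2(value + 1) scale, which understates those of low genes. The scripts were tested on simulated data, but the interaction and TGFβ in siPHF13 cells were not part of that test. There edgeR and DESeq2 were run only for depletion under TGFβ, with the siPHF13 group left out. Alternatives were a pseudocount of 5, no minimum, TMM factors, only the libraries compared, a replicate block, edgeR 4.0.16, DESeq2 1.42.0, each library left out, adjusted p alone and, chosen after seeing the data, a correction for GC content and length. No count interval is given for single genes. Gene positions and transcript lengths came from GRCh37 with a gencode annotation, and per-kb levels divide the normalized count by the length of the canonical transcript.

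The genes and the lists were chosen with earlier results of these data known. Named were the 10 genes and PHF13, up to 3 called genes per list and comparison with the largest change, and the 5 genes most like the member with the highest mean. One of the 9 lists is counted in the totals over the further genes but its own results are not reported here.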

Additional observations from a re-analysis of the deposited data

Results flagged for a closer look

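The response of TPM1 to TGFβ was smaller in siPHF13 than in siNC cells, with a difference of -0.47 on the log2 scale, with an adjusted p of 0.0183 by the interaction term of limma, and this test of a difference between groups is what marked it. TGFβ moved TPM1 from 13516 and 13023 to 32400 and 31436 normalized counts in siNC cells, and from 10707 and 10994 to 19016 and 18725 in siPHF13 cells. The difference kept its direction in each alternative that was run, from -0.49 to -0.44, but its adjusted p was above 0.05 without any one of 6 libraries.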

How the results depend on the processing

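The 15 called differences of the 10 genes kept their direction and their call in each alternative run on them (180 values, highest adjusted p 0.0246), edgeR and DESeq2 included. Over all genes, replicate differences of 2 groups correlated at only -0.089 to 0.050. This cannot tell whether libraries with the same replicate number were prepared together. With a replicate block, 4, 3, 6, 2 and 0 of the 10 genes and 2438, 630, 2711, 171 and 39 of all genes were called in the 5 comparisons, in the order siPHF13 against siNC, TGFβ in siNC, depletion under TGFβ, TGFβ in siPHF13 and interaction. In that order, edgeR called 2437, 640, 2724, 176 and 42 of all genes, DESeq2 2422, 644, 2692, 201 and 61, and limma 2448, 637, 2726, 179 and 41. DESeq2 gave no adjusted p for ACTA2, CNN1 and TAGLN in the interaction. By adjusted p alone, 7, 6, 8, 2 and 1 of the 10 genes passed, 46, 25, 49, 8 and 0 of the 90 further genes, and 6308, 2114, 6712, 409 and 55 of all genes, since the size limit was dropped. With 1 library left out, the interaction called 12 to 111 of all genes against 41, the highest without siPHF13 + TGFβ replicate 1, and TGFβ in siPHF13 cells called 1 to 3 of the further genes, 1 under the GC and length correction. A lone library left in a group was assumed to vary like the others. Differences near 0 that were not called changed sign. With 1 library left out, TAGLN ran from -0.19 to 0.16 for TGFβ in siNC cells and from -0.20 to 0.073 for depletion under TGFβ, ACTA2 from -0.25 to 0.42 for depletion under TGFβ and from -0.15 to 0.52 in the interaction, CNN1 from -0.30 to 0.16 in the interaction, and CNN2 from -0.043 to 0.11 for TGFβ in siNC cells, from -0.11 to 0.11 in siPHF13 cells and from -0.14 to 0.081 in the interaction. CNN1 was at 0.041 in the interaction with a pseudocount of 5, and CNN2 at -0.0011 and -0.068 for TGFβ in siNC and siPHF13 cells under the correction. The cause was not tested. The median of all genes moved by under 0.01 with TMM factors. Low counts of CNN1, TAGLN and ACTA2 limit the precision of their differences.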
